A study of Rattus norvegicus with 15 samples.

Results

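The upper 2 parts of the rat Achilles tendon, the proximal segment next to the calf muscle and the middle segment below it, were compared within animals. The comparison takes 10 of the 15 libraries of the study, 5 proximal and 5 middle, and pairs them by the rat that gave both. All came from untreated, healthy male Sprague-Dawley rats aged 8 weeks. Tendons were freed by cuts just below the junction with the muscle and above the insertion into bone and were divided into 3 segments of equal length. The segments of both limbs of a rat were joined into 1 sample, so a library averages the left and right tendon of its animal. Poly(A) RNA was sequenced in paired, strand-specific libraries, and the 5 distal segments of the same rats entered the fit to share the estimate of the spread.

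Tendon is built mainly from parallel fibrils of type I collagen, laid down and maintained by elongated fibroblasts called tenocytes that lie in rows between the fibres. At its upper end the tendon joins skeletal muscle through the myotendinous junction, where muscle fibres interlock with tendon matrix and pass on their pull, and at its lower end it is anchored to bone through fibrocartilage. The middle segment, or midsubstance, is the length of tendon furthest from both attachments.

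The counts are listed under Ensembl rat identifiers, and 0 of the 32883 identifiers could be paired with a gene symbol here. The genes are therefore described by their levels. No role, marker list, promoter or protein could be assigned to them, and neither the tendon label nor the presence of muscle was checked against marker genes. Because these are bulk samples, fewer cells of a type and less RNA per cell cannot be told apart in any of the differences below.

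Proximal libraries held 15413963 to 22205927 gene counts and middle libraries 18866801 to 27817554. The proximal library was the shallower of the pair in 5 of 5 rats, at 66.9% of the middle total in rat 4 to 93.5% in rat 5 (p = 0.0625, two-sided exact permutation of labels within rats, the smallest p that 5 pairs allow). Proximal and middle counts of a rat differed by 44.5 to 104 times what sampling noise gives (chi-square per degree of freedom), so no middle library was a copy of its proximal partner. Levels below are CPM (counts scaled to a common library size), adjusted between libraries by the trimmed mean of M-values (TMM). The middle library of rat 5 and the proximal library of rat 2 stood apart from the others of their region in some of the genes below, and the effect of leaving them out is given for the genes named by identifier and for the count of called genes.

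Few genes separated the proximal from the middle segment by the test. Of 15037 genes tested, 62 passed (0.412%; edgeR quasi-likelihood test, rat as a blocking term, Benjamini-Hochberg adjusted p below 0.05). Of these, 41 were higher in the proximal segment (0.273% of the genes tested) and 21 were lower (0.140%). The higher genes had a median log2 fold change of 1.27, from 0.39 to 6.05, and 24 of them were at least 2-fold and 11 at least 8-fold apart. The lower genes were closer together, with a median of -0.46, from -0.29 to -2.27, and 5 of the 21 were at least 2-fold apart. Over all genes tested the median was -0.0034, and 49.3% of genes had a fold change above 0.

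**Figure D1:**
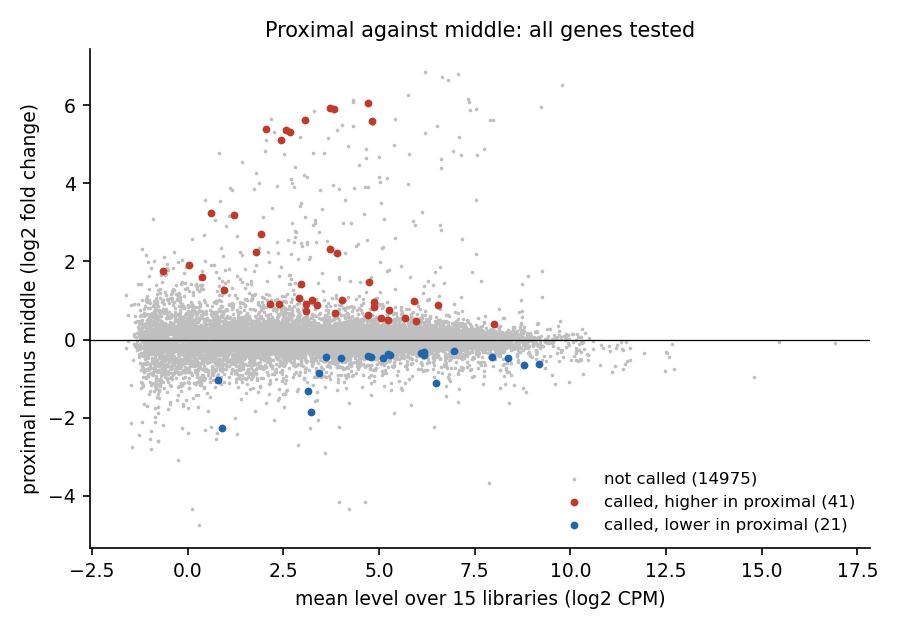
Fitted log2 fold change of proximal over middle tendon (vertical) against the mean level over all 15 libraries in log2 CPM (horizontal), 1 point per gene tested. The 41 called higher genes reach 6.05 and the 21 called lower genes -2.27, and many grey points above 2 were not called.

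Most calls lay close to the threshold. The smallest adjusted p was 0.0116 (edgeR), 7 genes were below 0.02, and 48 of the 62 lay at 0.04 or above. At an adjusted p below 0.1 the count was 796. The call set also depended on the libraries and the model: 0 genes passed when the rat was not used as a block (2204 at an unadjusted p below 0.05), and 19 passed when only the 10 proximal and middle libraries were fitted, 8 of them among the 62. DESeq2 with the same terms called 1198 genes, which included all 62.

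Most genes with large fold changes were not called. A fitted difference of at least 8-fold toward the proximal segment was seen in 100 genes, and 11 of these passed, a larger share than the 0.273% of all genes called higher, in the same contrast that measured the fold. Their within-rat differences had a median SD over rats of 3.08 log2 units. Toward the middle segment 7 genes were at least 8-fold apart and 0 passed (edgeR; 6 at an unadjusted p below 0.05, 4 called by DESeq2 and 0 by limma-voom). For the typical gene the difference was small beside the spread between animals: the median size of the mean within-rat difference was 0.146 log2 units and its median SD over rats 0.274. The same measures for middle minus distal were 0.200 and 0.266, and for proximal minus distal 0.283 and 0.286. These comparisons share libraries, and their own counts of called genes were 3731 (24.8%) and 6300 (41.9%). The typical difference between the upper 2 segments was thus the smallest of these, while the spread between rats was of similar size in each.

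Calls were spread over the range of expression. Among the 7921 genes with a mean of 10 to 100 CPM in the segment where they were higher, 42 were called, 29 higher and 13 lower in the proximal segment. Among the 4109 genes at 1 to 10 CPM, 10 higher and 3 lower genes passed, and among the 1826 genes at 100 CPM or more, 2 higher and 5 lower genes passed. None of the 1181 genes under 1 CPM passed (edgeR; 111 at an unadjusted p below 0.05, 8 called by DESeq2 and 0 by limma-voom), and their differences were also the most variable, with a median SD over rats of 0.767 log2 units against 0.192 at 100 CPM or more. The 41 higher genes together made up 0.175% of proximal and 0.0817% of middle counts. The 21 lower genes made up 0.148% of proximal and 0.209% of middle counts, shares measured in the libraries that chose them.

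The 100 genes with the highest mean level, which held 34.0% of all counts in the 10 libraries, included 0 called genes (edgeR), where 0.412% of all genes were called. At an unadjusted p below 0.05 there were 21, beside 20.6% of all genes tested. DESeq2 called 14 of them, beside 8.29% of the genes to which it gave an adjusted p, and limma-voom called 2. Their median log2 fold change was -0.13, and 69 of the 100 had a fitted value below 0. The most abundant gene took 4.25% of proximal counts in its lowest library, 12.5% in the median and 23.3% in its highest, against 4.74%, 13.4% and 17.1% in middle libraries. It was higher in the proximal segment in 2 of 5 rats, and its proximal range spanned beyond the middle range on both sides (log2 fold change -0.09 ± 0.38, approximate SE; edgeR adjusted p = 0.916). The third most abundant gene had 0.855%, 1.25% and 2.17% of proximal and 1.21%, 2.79% and 3.08% of middle counts. It was lower in the proximal segment in 5 of 5 rats, but its log2 fold change of -0.95 ± 0.23 (approximate SE) did not pass (edgeR adjusted p = 0.0714).

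Among the genes called higher, 9 stood apart by size, with log2 fold changes of 5.11 to 6.05, and the next gene followed at 3.25. This split was made after the values were seen and serves as a description. ENSRNOG00000014327 had the largest fold change of all called genes. Its proximal level was 144 CPM in rat 3, 159 in rat 5 and 70.9 in rat 4, but 7.21 in rat 1 and 0.145 in rat 2, where 3 reads were counted. The middle segment of rat 5 had 13.3 CPM, and those of the other 4 rats had 0 to 0.150 CPM. Of its 316 middle counts, all but 8 came from rat 5, and the 5 distal libraries held 2 counts together. The proximal segment was thus the highest of each rat, but the middle library of rat 5 lay above the proximal libraries of rats 1 and 2. The fold change was 6.05 ± 0.92 on the log2 scale (approximate SE; edgeR adjusted p = 0.0437). The within-rat difference in log2 CPM, 5.68 ± 3.54 (SD, n = 5), carried a large spread.

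ENSRNOG00000037645 followed the same course at a lower level. Its proximal values were 89.8 CPM in rat 5, 70.2 in rat 3, 29.9 in rat 4, 2.77 in rat 1 and 0.0483 in rat 2, the last from 1 read. Its middle library held 162 counts in rat 5, 1 count in rat 1 and 0 in rats 2, 3 and 4. The proximal segments had the same order of rats as for the first gene, and rat 5 was again highest in the middle. The fold change was 5.92 ± 0.84 (log2, approximate SE; edgeR adjusted p = 0.0383), and the within-rat difference 5.37 ± 3.66 log2 units (SD, n = 5).

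Both calls depended on single libraries. The fold change was larger when either the middle or the proximal library of rat 5 was left out. With rat as a block, either omission breaks the pair of that rat. Without the middle library it was 9.09 for ENSRNOG00000014327 and 10.57 for ENSRNOG00000037645 (log2, edgeR adjusted p = 0.000967 and 1.4e-05). Without the proximal library, the highest proximal one for both genes, it was 8.61 and 9.48 (edgeR adjusted p = 0.00703 and 0.00536). The sizes without the rat 5 middle library are uncertain, since the other middle libraries held 8 and 1 counts. Without the proximal library of rat 2 the fold changes were 6.08 and 5.90 (edgeR adjusted p = 0.0248 and 0.0256). Each call was lost without any 1 of the middle libraries of rats 1, 2, 3 and 4, the proximal libraries of rats 1, 3 and 4 or the distal libraries of rats 2, 3 and 4, with edgeR adjusted p-values of 0.0556 to 0.153 for ENSRNOG00000014327 and 0.0523 to 0.153 for ENSRNOG00000037645. The log2 fold changes then ran from 5.03 to 6.15 and from 4.92 to 5.93. With proximal and middle libraries alone the edgeR adjusted p-values were 0.137 and 0.137, and with no rat block 0.159 and 0.162. Without all libraries of rat 4 they were highest, at 0.255 for each gene.

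The other 7 genes of this set shared that distribution over animals. The filter on low counts asks for a minimum level in about as many libraries as a region has. Outside the proximal segments of rats 1, 3, 4 and 5 and the rat 5 middle segment, these genes reached at most 0.263 CPM. Genes of this kind could thus be tested only if raised in the rat 5 middle library, and that shared feature is a description. The median level of the 9 genes among proximal segments was 56.1 CPM in rat 3, 42.6 in rat 5 and 22.5 in rat 4. In rat 1 it was 2.22 CPM, and in rat 2 it was 0.0483 CPM. Among middle segments the median was 3.54 CPM in rat 5 and between 0.0376 and 0.0426 CPM elsewhere, and the distal segments 0 to 0.0790 CPM. In rat 2 the 9 genes together had 13 proximal, 10 middle and 3 distal counts, which is too few to tell the segments apart. There 4 of the 9 differences were positive and 4 negative, while in rats 1, 3, 4 and 5 all 9 were positive. The within-rat median was 8.69 log2 units in rat 3, 7.23 in rat 4, 4.12 in rat 1 and 3.57 in rat 5. In none of the 9 did the proximal and middle libraries separate without overlap, which that filter favours.

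**Figure D2:**
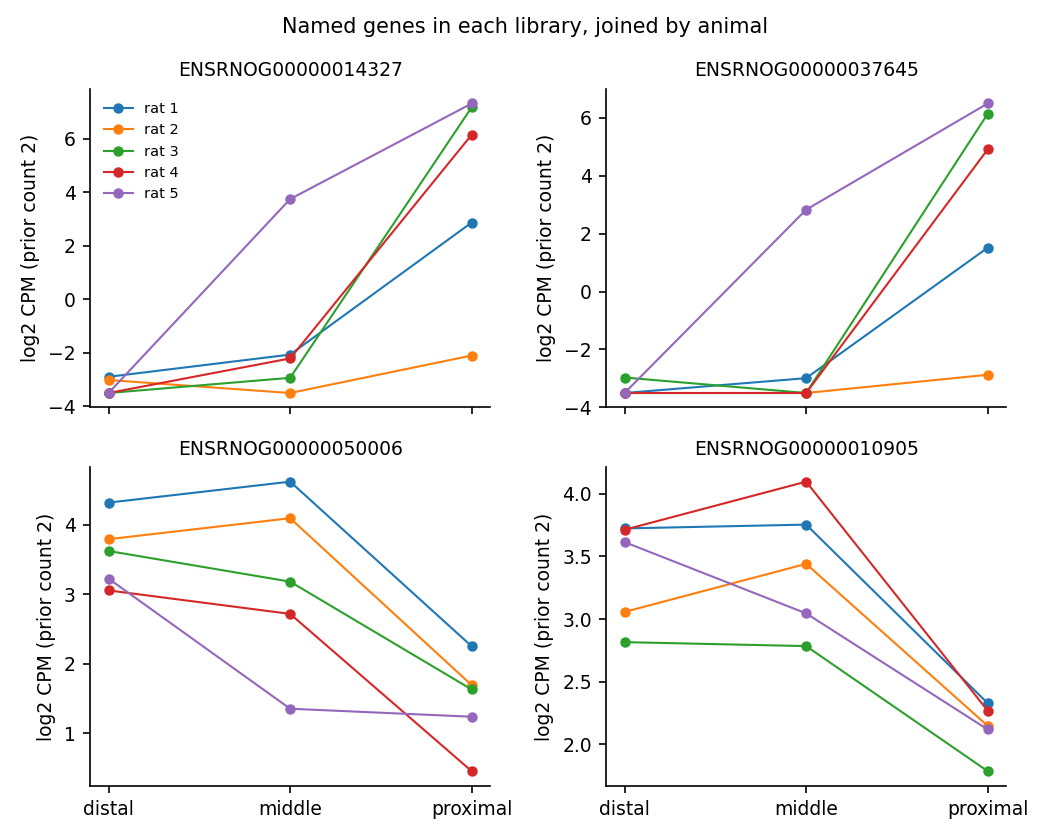
Level of the 4 genes named by identifier in each library (log2 CPM, prior count 2, vertical) along the tendon (horizontal), 1 line per rat. The upper panels show the jump in the proximal segments of rats 1, 3, 4 and 5 and the raised middle segment of rat 5. The lower panels show the lower level of the proximal than the middle segment in every rat. For ENSRNOG00000050006 in rat 5 this difference is only -0.12 log2 units.

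The remaining 32 higher genes changed less and more evenly. Their log2 fold changes ran from 0.39 to 3.25, and the SD of the within-rat difference had a median of 0.411 log2 units, against 3.41 for the 9 genes above. All 32 were higher in the proximal segment in 5 of 5 rats, rat 2 included. Over all genes tested, 17.5% had the same sign in 5 rats. The test that chose the 32 uses these differences, so their agreement in sign is a description. Their median within-rat difference was 0.70 log2 units in rat 1, 0.95 in rat 2, 1.29 in rat 3, 1.19 in rat 4 and 0.84 in rat 5. For 17 of the 32, also chosen on these libraries, every proximal library lay above every middle library, which held in either direction for 226 (1.50%) of all genes tested. Median levels of the set were 13.3 to 27.9 CPM in proximal, 6.58 to 12.7 CPM in middle and 3.47 to 5.47 CPM in distal segments. Of all 41 higher genes, 7 were called when only the 10 proximal and middle libraries were fitted. With a rat left out, 14 of the 41 were called without rat 1 and 13 without rat 2. The number was 0 without rat 3, 0 without rat 4 and 9 without rat 5.

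The genes called lower in the proximal segment mostly had smaller fold changes than the higher ones, and some of them varied between animals. ENSRNOG00000010905 reached one of the smallest adjusted p-values of the comparison. Its proximal level was 3.36 CPM in rat 3, 4.26 in rat 5, 4.34 in rat 2, 4.73 in rat 4 and 4.94 in rat 1. Its middle level was 6.80 CPM in rat 3, 8.17 in rat 5, 10.8 in rat 2, 13.4 in rat 1 and 17.0 in rat 4. The groups did not overlap, and rat 3 was lowest in both. The gene fell by 1.33 ± 0.15 on the log2 scale from middle to proximal (approximate SE; edgeR adjusted p = 0.0116), with a within-rat difference of -1.29 ± 0.36 log2 units (SD, n = 5). In the distal segments it averaged 10.7 ± 2.89 CPM (SD, n = 5), close to the middle mean of 11.2 ± 4.10 CPM. The middle-distal log2 fold change was 0.05 (edgeR adjusted p = 0.847), a value that did not pass and does not show equal levels. The call was lost when the rat 2 middle library (edgeR adjusted p = 0.0534), the rat 3 proximal library (0.0517) or the rat 4 proximal library (0.0511) was left out. It was also lost without all libraries of rat 3 (edgeR adjusted p = 0.104) or of rat 4 (0.123), and with no rat block (0.138). It was kept with the 10 libraries alone and when the rat 5 middle library (log2 fold change -1.44, edgeR adjusted p = 0.00172) or the rat 2 proximal library (-1.36, 0.0212) was left out.

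ENSRNOG00000050006 was measured at 1.28 to 4.66 CPM in the proximal segments, lowest in rat 4, at 2.27 in rat 5 and 3.14 in rat 2, and highest in rat 1. Its middle levels were 24.5 CPM in rat 1, 17.0 in rat 2, 8.97 in rat 3, 6.48 in rat 4 and 2.46 in rat 5. The middle segment of rat 5 was the only one within the proximal range, and the difference in that rat was -0.12 log2 units against -1.55 to -2.40 in the others. The gene fell by 1.87 ± 0.31 on the log2 scale (approximate SE; edgeR adjusted p = 0.0437), with a within-rat difference of -1.74 ± 0.97 (SD, n = 5). Its distal mean was 12.6 ± 4.59 CPM (SD, n = 5), and the step from distal to middle was not called (log2 fold change -0.31; edgeR adjusted p = 0.461). The call did not survive the loss of any 1 of the 10 libraries named for the first gene (edgeR adjusted p = 0.0556 to 0.153), the fit of 10 libraries (0.117) or the fit with no block (0.138). The highest edgeR adjusted p, 0.255, came without all libraries of rat 4. Without the rat 5 middle library the log2 fold change was -2.16 (edgeR adjusted p = 0.000524), and without the rat 2 proximal library -1.78 (0.0297).

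Across all 21 lower genes the median within-rat difference was -0.69 log2 units in rat 1, -0.40 in rat 2, -0.39 in rat 3, -0.58 in rat 4 and -0.47 in rat 5. Every one of them was lower in the proximal segment in all 5 rats. Their SD over rats had a median of 0.177 log2 units. The test that chose them favours a small SD and an equal sign, so neither is support. When only the 10 proximal and middle libraries were fitted, 1 of the 21 was called. With a rat left out, 1 was called without rat 1, 2 without rat 2, 0 without rats 3 and 4, and 3 without rat 5. For 5 of the 21, chosen on these same libraries, proximal and middle did not overlap (background 1.50%). The median level of the set was 21.4 to 32.1 CPM in proximal and 35.2 to 40.3 CPM in middle segments, and 38.0 to 43.4 CPM in distal segments.

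**Figure D3:**
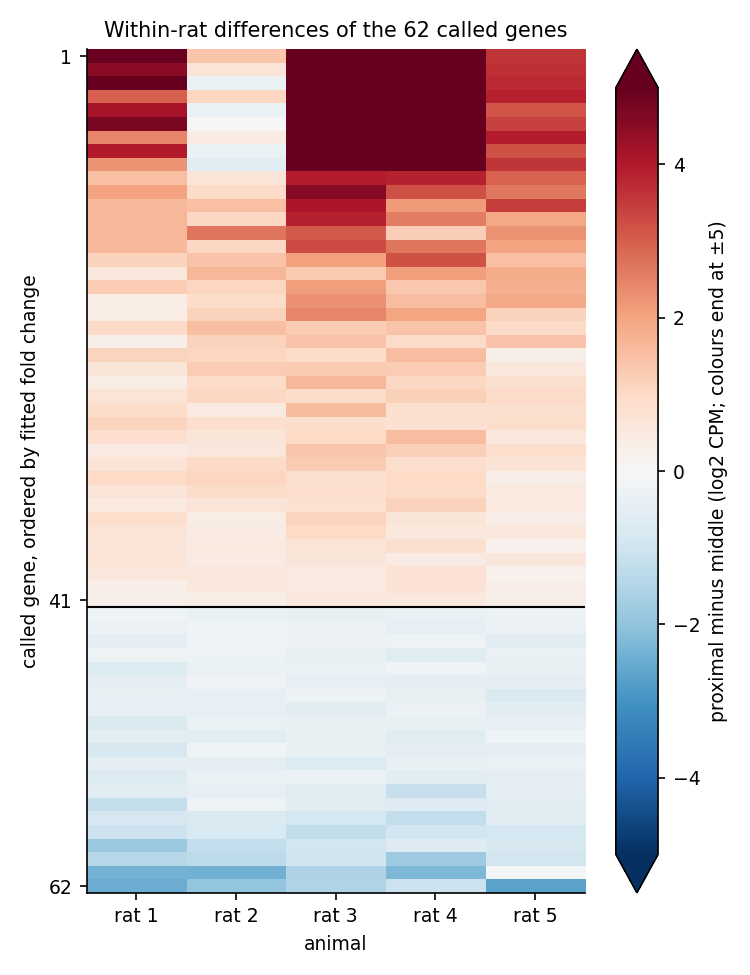
Proximal minus middle difference in log2 CPM (colour, ending at ±5) of the 62 called genes (rows, ordered by fitted fold change, a line dividing the 41 higher from the 21 lower) in each rat (columns). The 9 uppermost rows are dark in rats 3 and 4 and near white in rat 2. The other 53 rows keep one sign in all 5 rats, and many of them are also pale on this scale.

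The called genes were also read in the distal segment, with the middle libraries shared between both steps and the proximal libraries shared with proximal against distal. Of the 41 higher genes, 28 were also called higher in middle than in distal tendon (background 24.8% in either direction), 0 were called lower, and 13 did not pass. The fitted middle level lay above the distal level for 38 of the 41. Of the 21 lower genes, 13 were called lower in middle than in distal tendon, and 8 did not pass, among them both lower genes named above. The fitted middle level lay below the distal level for 17 of the 21. The share of all genes tested with either sign is not given here, so these counts by sign are a description. All 62 were called between proximal and distal tendon in the same direction (background 41.9% in either direction), which the shared proximal libraries favour. Median log2 fold changes of the higher genes were 1.13 for middle over distal and 1.27 for proximal over middle, and those of the lower genes -0.37 and -0.46.

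The size of the proximal-middle difference varied between animals when measured by the root mean square, which large differences of few genes can dominate. In rat 2 the root-mean-square difference between the segments over all genes tested was 0.486 log2 units. It was 0.619 in rat 5, 0.653 in rat 1, 0.813 in rat 4 and 0.935 in rat 3. The corresponding distance from middle to distal was 0.646 in rat 2, 0.896 in rat 5, 0.687 in rat 1, 0.827 in rat 4 and 0.632 in rat 3. By this measure the upper step was the larger one in rat 3 and the smaller one in the other 4 rats. The median size of the proximal-middle difference over genes varied less between rats. It was 0.193 log2 units in rat 2, 0.221 in rat 1, 0.236 in rat 3, 0.236 in rat 4 and 0.237 in rat 5.

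Direction varied as well. Among genes with at least 10 CPM in 1 of the segments of the rat, those at least 2-fold higher in the proximal segment numbered 403 in rat 3, 282 in rat 4, 278 in rat 5, 124 in rat 1 and 115 in rat 2. Those at least 2-fold lower numbered 299 in rat 1, 220 in rat 4, 144 in rat 3, 52 in rat 2 and 39 in rat 5. Rat 1 thus had more lower than higher genes and the other 4 rats more higher than lower. The 2-fold genes of both directions made up 1.73% (rat 2) to 5.57% (rat 3) of the 9642 to 9825 genes at that level. At least 8-fold higher genes numbered 161 in rat 3, 108 in rat 4, 78 in rat 5, 24 in rat 1 and 1 in rat 2. At least 8-fold lower genes numbered 0 in rat 3, 6 in rat 4, 4 in rat 5, 21 in rat 1 and 2 in rat 2. Genes with at least 10 proximal counts and 0 middle counts numbered 86 in rat 3, 53 in rat 4, 52 in rat 5, 8 in rat 1 and 6 in rat 2. The reverse, at least 10 middle and 0 proximal counts, was seen for 61 genes in rat 1 and for 10 to 40 in the others. The middle library was the deeper one of every pair, and the part of depth in these counts was not tested. These counts come from 1 pair of libraries each and have no replicate within the animal.

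**Figure D4:**
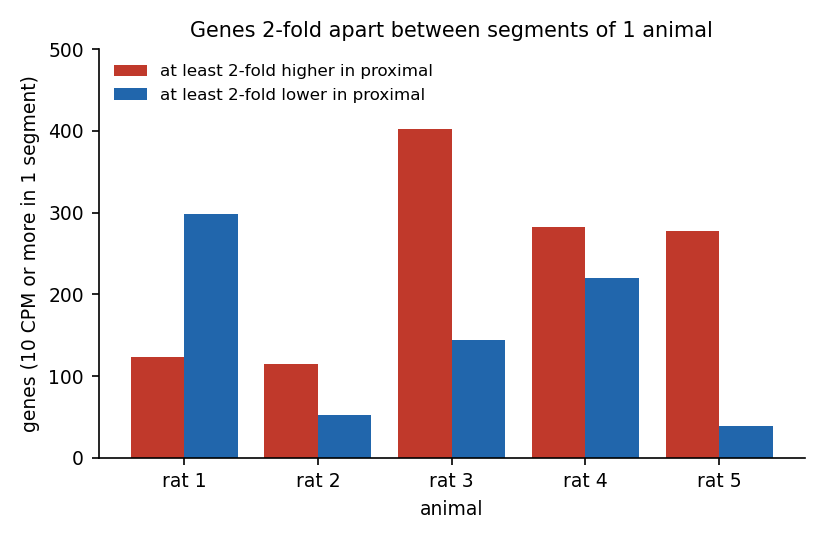
Number of genes (vertical) at least 2-fold higher or lower in the proximal than in the middle segment of the same animal (horizontal), among genes at 10 CPM or more in 1 of both. Rat 3 has 403 higher genes and rat 2 has 115, and lower genes range from 39 in rat 5 to 299 in rat 1.

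A rat left out of the fit gave values that had no part in the ranking of genes. It did have a part in the filter on low counts and in the scaling, which used all 15 libraries. For genes high in few libraries, this filter favours those that are also high in the left-out rat. The counts below are therefore a description. The model was fitted to 4 rats, the 100 genes with the smallest p in each direction were taken, and their differences were read in the fifth rat. The number 100 was set after the data had been seen. Of the genes ranked higher in the proximal segment, 93 were positive in rat 3, 91 in rat 4, 82 in rat 1 and 81 in rat 5, where 47.5% to 50.5% of all genes were positive. In rat 2, 54 of 100 were positive, beside 49.9% of all genes. Median differences were 1.07 log2 units in rat 3, 0.91 in rat 4, 0.36 in rat 1, 0.17 in rat 5 and 0.10 in rat 2. Of the genes ranked lower, 94 were negative in rat 4, 92 in rat 1, 83 in rat 5, 80 in rat 2 and 75 in rat 3, with medians from -0.15 in rat 3 to -0.56 in rat 1. Genes lower in the proximal segment were thus mostly lower in each left-out rat, and those higher were mostly higher in 4 of the 5. The median over all genes was between -0.02 and 0.0044 log2 units in each rat.

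The count of called genes moved widely with single libraries. Without the proximal library of rat 2 it was 536, 396 higher and 140 lower, and these included all 62. It was 129 without the middle library of rat 5, of which 48 were among the 62, and 131 without the distal library of rat 5, which included all 62. It dropped to 0 when the rat 2 middle or the rat 3 proximal library was left out, and to 2 when that was the rat 4 proximal library (edgeR in each case; 2780, 2662 and 2380 genes at an unadjusted p below 0.05). Without the middle libraries of rats 1, 3 and 4 the counts were 16, 6 and 5, without the distal libraries of rats 2, 3 and 4 they were 15, 10 and 11, and without the proximal library of rat 1 the count was 38. Leaving out the proximal library of rat 5 gave 49 genes and leaving out the distal library of rat 1 gave 76. With a whole rat left out, the counts were 27 without rat 1, 35 without rat 2 and 30 without rat 5. The count was 0 without rat 3 and 0 without rat 4 (edgeR, with 2668 and 2038 genes at an unadjusted p below 0.05).

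**Figure D5:**
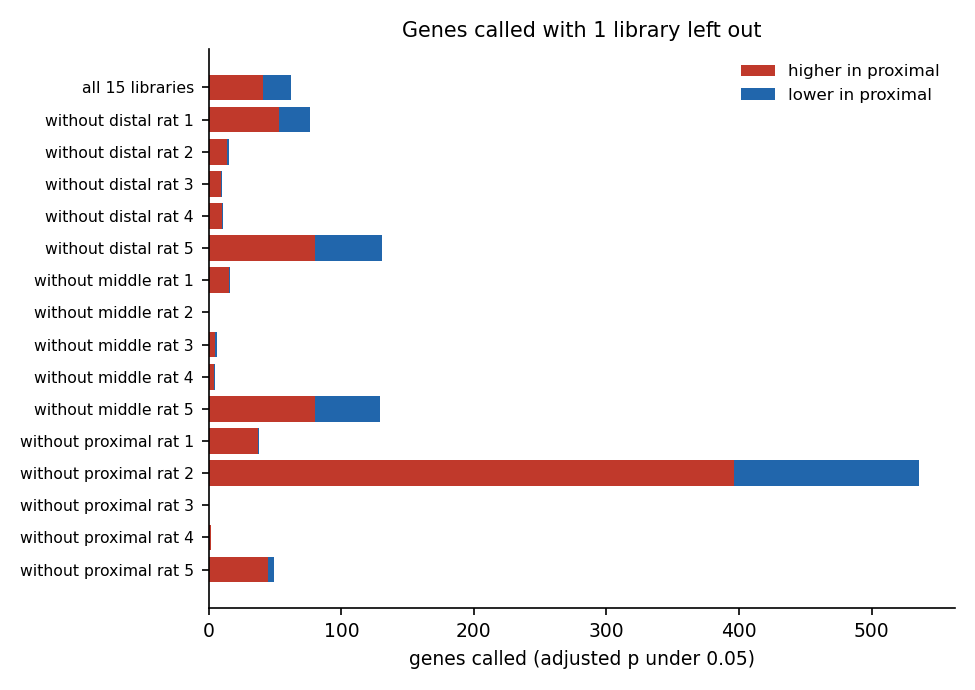
Number of genes called between proximal and middle tendon (horizontal, stacked by direction) with all 15 libraries and with each library left out in turn (vertical). The bar without the proximal library of rat 2 reaches 536 genes, and the bars for the rat 2 middle and the rat 3 proximal library are at 0.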

How the data were processed

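The authors deposited raw read counts per Ensembl rat gene for 15 libraries, without normalization. The tools listed per the submitters' processing notes were featureCounts 2.0.1, SAMtools 1.9, HISAT2 2.2.1 and fastp 0.19.10, with the genome build rn6. For the strand setting, the options and the annotation release, nothing is given in the sources used here, so reads of overlapping, antisense or near-identical genes may be split in unknown ways. All columns were matched to samples by the region and rat in their names.

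With edgeR 4.0.16 (R 4.3.3), filterByExpr by region kept the genes tested (15037 of 32883 genes, 10178 being at 0 throughout). They were scaled by TMM and fitted over 15 libraries with terms for region and rat (robust quasi-likelihood). P-values were Benjamini-Hochberg adjusted over all genes tested. Standard errors come from the fold change and the F statistic and are approximate. Log2 CPM used a prior count of 2, and CPM used TMM-scaled library sizes. Where counts are few, log2 differences depend on this prior count. Alternatives used DESeq2 1.42.0 and limma 3.58.1, other scalings and filters, and left-out rats or libraries. Intervals from counting were not used.

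The rat block was used because the labels name the animal of each library. Deviations of the proximal and middle library of a rat from their region means were correlated above 0.1 across genes in 4 of 5 rats (r = -0.0043 in rat 3). In rats 3 and 4 the proximal library was closer to the middle library of another rat (r = 0.223 and 0.450) than to its own (0.196 in rat 4). Genes printed by identifier are the 2 higher and 2 lower called genes with the largest fold change that averaged at least 1 log2 CPM in the higher segment and had the same sign in at least 4 rats. The comparison, the gene lists and this rule were chosen with earlier results of these data known. The lists were written with gene symbols and could not be applied.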

Additional observations from a re-analysis of the deposited data

Results flagged for a closer look

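A screen of 23 sets of 5 values for a value lying far outside the other 4 found 2, and about 5% of sets would give one by chance. Both were the middle library of rat 5. ENSRNOG00000014327 stood at 3.74 log2 CPM in that library, and the next highest middle library was at -2.07. ENSRNOG00000037645 stood at 2.83 log2 CPM, and the next highest was at -2.99. Both genes belong to the 9 called genes with the largest fold changes, which share their distribution over animals, so these values are not independent of each other. The filter on low counts also let genes of this kind be tested only if this library was raised, which favours both flags. The median level of all 9 genes in this library was 3.54 CPM. With it left out, both genes were called (edgeR adjusted p = 0.000967 and 1.4e-05).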

How the results depend on the processing

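Beside the 62 called genes (41 higher, 21 lower), RLE scaling, no filter on low counts and a filter of 1 CPM in 5 libraries gave 55, 59 and 72. The count was 19 (10 higher, 9 lower) with proximal and middle libraries only, 20 (14 and 6) with library totals in place of TMM, and 29 (24 and 5) with a 2-fold minimum. DESeq2 gave 1198 (728 and 470), and limma-voom with robust shrinkage gave 118 (87 and 31, 55 of the 62 among them). With no replicate block the count was 0 (0 higher and 0 lower). Thinning all libraries to the smallest total, chosen after seeing the data, gave 120 (79 and 41). So were limma-voom without robust shrinkage, with 217 (164 and 53), and limma-trend, with 10 (8 and 2), so the limma count depended on its settings. Leaving out a rat or a library gave 0 to 536 genes, 0 to 396 higher and 0 to 140 lower. The cause of these shifts was not tested beyond what each setting leaves out. The mean difference in library total, proximal minus middle, was -6531820 to -4928970 counts with a rat left out. With no replicate block the difference of -5470180 counts gave p = 0.0397 (exact permutation of 5 against 5). Among the 4 named genes no setting turned the direction, and ENSRNOG00000010905 kept its call in 25 of 31 settings, ENSRNOG00000050006 in 14 of 31, ENSRNOG00000014327 in 10 of 30 and ENSRNOG00000037645 in 9 of 30. Without rat 5 the higher genes did not pass the filter on low counts. The alternatives for gene lists were not run, since no identifier had a symbol. With 5 pairs, an exact test of a single value cannot go below 0.0625.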
